A study of Mus musculus with 3 samples.

Results

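The threonine tRNAs of the mouse were followed as small RNA in the epididymis, the duct in which sperm mature. They were taken as every row of the deposited tables whose name starts with tRNA-Thr-AGT, tRNA-Thr-CGT or tRNA-Thr-TGT, which gave 19 of 446 tRNA genes, 11 with the anticodon AGT, 4 with CGT and 4 with TGT. RNA between 15 and 50 nt was cut from a gel and sequenced from 1 wild type library and 2 libraries of Alkbh3-/- mice. The latter are named A and B after their column order, because the column names match no replicate number in the labels. Both groups were untreated epididymis. The labels give no strain, age or number of animals per library, and the wild type column name starts with B6 while the Alkbh3-/- names do not. Nothing in the labels ties A and B to separate animals. The p-values therefore reflect the spread between these samples alone, and that spread may be technical. The tables hold no single mRNA, so neither the genotype nor the tissue was checked against marker genes. Intact tRNA is longer than the excised range, so the reads describe tRNA fragments.

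Threonine tRNAs deliver threonine to the ribosome, and their anticodons share the work of reading its codons. The first A of the AGT anticodon is converted to inosine in the mature tRNA, which widens the set of codons it reads, while CGT and TGT cover the codons that end in G and A. Cytosolic threonine tRNAs carry 3-methylcytidine at position 32, in the anticodon loop, where it is written by METTL2 enzymes. ALKBH3 is a demethylase that removes this mark and 1-methyladenosine from RNA. Both marks lie on the face of the base that pairs, and they hinder the reverse transcriptase used to make libraries. Cleavage in or near the anticodon loop splits a tRNA into long fragments of its 5′ and 3′ sides, an abundant form of tRNA fragment in the epididymis and in sperm.

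The gene of Thr-AGT-1-1 is shown because it places the modified base and the anticodon. Fragment lengths can only be compared with the lengths of its parts, since the deposited fragments carry no position. The gene lies at chr7:35234770-35234843 on the minus strand of GRCm38.p6, and its sequence was read from RefSeq. The capitals mark the C of canonical position 32 and the anticodon.
Thr-AGT-1-1: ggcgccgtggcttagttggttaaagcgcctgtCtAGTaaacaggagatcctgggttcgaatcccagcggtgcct
In this gene of 74 bases the C is base 33 counted from the 5′ end and the anticodon spans bases 35 to 37. A further 37 bases follow the anticodon, or 40 with the 3 bases of CCA that are added to every tRNA after transcription. The gene holds the motif GGTTCGANTCC, the box B element of internal tRNA promoters, at bases 53 to 63. The motif was searched on both strands and was found in 0.0457% of 32851 windows of 300 bases around the starts of genes in RefSeq.

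The first bases of a CGT gene were also covered, through the part of Thr-CGT-2-1 that lies in an exon of the noncoding gene Gm11205 in GENCODE M21, at chr11:79704650-79704666 on the plus strand. They are set beside the first bases of Thr-AGT-1-1, at chr7:35234827-35234843 on the minus strand, to show how far the 5′ sides of these tRNAs differ. The capitals mark the bases that differ.
Thr-CGT-2-1: ggcgcGgtggcCAagtG
Thr-AGT-1-1: ggcgcCgtggcTTagtT
The genes were equal at 13 of these 17 bases.

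The first question was how many reads each threonine anticodon gave in each genotype. Counts are given as RPM, the reads per 1000000 reads of the 5 RNA classes in a library, whose sums were 15107055 in wild type, 15411457 in A and 21169908 in B. Threonine tRNAs were a small source, with 1722, 992 and 1531 reads in these libraries, or 0.0429%, 0.0297% and 0.0321% of the tRNA gene counts. The exact Clopper-Pearson 95% interval was 0.0409 to 0.0450% in wild type, and it covers counting error only.

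Reads of Thr-AGT, the anticodon with the most genes, stood at 50.8 RPM in wild type, 20.05 RPM in A and 21.5 RPM in B. Both Alkbh3-/- libraries were far below wild type and close to each other. Its log2 fold change was -1.28 with an SE of 0.18 (edgeR quasi-likelihood adjusted p = 2.5e-07 over 46 isoacceptors). Thr-AGT fell from 767 wild type reads to 309 and 456 reads in the larger Alkbh3-/- libraries. Of all isoacceptors tested, 17.4% were called lower. DESeq2 gave Thr-AGT a log2 fold change of -0.97 (adjusted p = 0.057), so that tool did not call it, and over 8 alternative settings with a test the adjusted p ran from 6.6e-08 to 0.057. The wild type group is 1 library, and its spread was assumed to be that of the Alkbh3-/- libraries. In a whole tissue, fewer cells of a type and less of this RNA per cell cannot be told apart.

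The other anticodons moved less and did not pass. Thr-CGT was at 30.3 RPM in wild type, 19.9 RPM in A and 23.7 RPM in B, or -0.46 in log2 fold change with an SE of 0.20 (edgeR adjusted p = 0.087). Thr-TGT was at 32.9, 24.5 and 27.1 RPM, or -0.34 in log2 fold change with an SE of 0.19 (edgeR adjusted p = 0.224). Both Alkbh3-/- libraries lay below wild type for all 3 anticodons, a position shared by 52.2% of the isoacceptors tested. The median log2 fold change of all isoacceptors was -0.26, and relative to it Thr-AGT stood at -1.02, Thr-CGT at -0.20 and Thr-TGT at -0.08. With the tRNA counts themselves as library sizes the log2 fold changes were -1.02 for Thr-AGT (edgeR adjusted p = 0.0040), -0.19 for Thr-CGT and -0.08 for Thr-TGT.

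**Figure D1:**
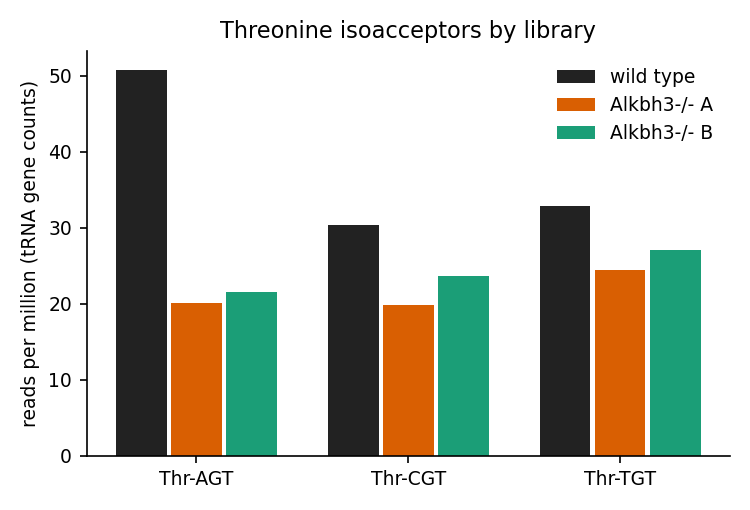
Reads per 1000000 class reads (RPM) of the 3 threonine isoacceptors from the tRNA gene counts, with 1 bar for each library and no error bars because each bar is 1 library. Thr-AGT was the highest in wild type at 50.8 RPM and the lowest on average in Alkbh3-/- at 20.8 RPM.

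In the gene counts the order of the anticodons differed between the genotypes. In wild type Thr-AGT led, ahead of Thr-TGT and Thr-CGT, while in Alkbh3-/- Thr-TGT led with 25.8 ± 1.84 RPM (SD, n = 2), ahead of Thr-CGT with 21.8 ± 2.73 RPM and Thr-AGT with 20.8 ± 1.05 RPM. The means of Thr-CGT and Thr-AGT were closer than their spread, and in A Thr-AGT was above Thr-CGT. This order holds for the gene counts alone: in the fragment tables Thr-CGT had the fewest reads in each library, and for each of them there were 11.8 Thr-AGT reads in wild type, 8.75 in A and 5.40 in B. Ratios within a library need no scaling. For each Thr-TGT read there were 1.54 Thr-AGT reads in wild type, 0.820 in A and 0.796 in B. The ratio of Thr-CGT to Thr-TGT was 0.922, 0.812 and 0.876. Thr-AGT thus lost ground against Thr-TGT in both Alkbh3-/- libraries, while the ratio of the other pair moved by little more than the gap between A and B. The split of threonine reads over the anticodons differed between A and B by no more than counting noise gives (chi-square 1.13 with 2 degrees of freedom). No test was made on these ratios, since with 1 library against 2 the smallest exact permutation p is 0.333.

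The second question was whether the change was spread over gene copies. Of the 19 genes, 17 had coordinates in the deposited tables, and all 17 had the chromosome, start and end of a tRNA in RefSeq GRCm38.p6, the assembly of mm10. Thr-AGT-8-1 and Thr-AGT-9-1 had no read in any library. After a filter of 10 reads over the 3 libraries 14 copies were tested and 5 were left out. In tRNA names the first number marks the mature sequence and the second the copy, so copies such as Thr-AGT-1-1, 1-2 and 1-3 are identical in mature sequence and may share reads. Values of single copies are therefore uncertain and copies are not independent.

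Thr-AGT-1-1 had 156 reads in wild type, 68 in A and 86 in B. Thr-AGT-1-2 had 142, 60 and 86 reads, and Thr-AGT-1-3 had 179, 62 and 112. These identical copies were each lower in both Alkbh3-/- libraries by a like amount. Thr-AGT-2-1 had 109, 50 and 68 reads and Thr-AGT-3-1 had 157, 62 and 88. Together these 5 copies held 96.9% of the wild type Thr-AGT reads, and all 5 fell, with log2 fold changes from -1.34 to -1.16 (SE 0.15 to 0.23, edgeR adjusted p from 0.015 to 0.021 over 367 genes). Of all genes tested, 7.36% were called lower. None of the 5 was called with DESeq2 or with the tRNA counts as library sizes, where the log2 fold changes lay between -1.15 and -0.90.

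The other Thr-AGT copies were rare, with 14 wild type reads or fewer each. Thr-AGT-4-1, with 14, 2 and 5 reads, had a log2 fold change of -2.23 (SE 2.16) and did not pass, and neither did Thr-AGT-7-1 with 5, 2 and 6 reads. Thr-AGT-4-1 was called without the filter on low counts (edgeR adjusted p = 0.0025). Thr-AGT-5-1 and Thr-AGT-6-1 had 1 to 3 reads in each library and were not tested. In the gene counts Thr-CGT-3-1 was seen only in library B, with 6 reads, while the fragment tables gave it 1 read in wild type, 0 in A and 9 in B. Of the CGT and TGT genes 7 were tested and none passed with edgeR (lowest unadjusted p = 0.128, lowest adjusted p = 0.551) or with DESeq2, with log2 fold changes from -1.25 to -0.09. Thr-CGT-1-1 supplied 90.0% of the wild type Thr-CGT reads, with 412, 272 and 437 reads. Thr-CGT-2-1 was level, at 2.45, 2.08 and 2.46 RPM, and its direction changed with the scaling. Thr-TGT came mainly from Thr-TGT-3-2 with 214, 170 and 242 reads, its identical copy Thr-TGT-3-1 with 181, 145 and 220, and Thr-TGT-2-1 with 92, 55 and 103. In RPM each of these TGT copies was lower in both Alkbh3-/- libraries, with log2 ratios to wild type from -0.77 to -0.21, against -1.56 to -1.15 in the 5 Thr-AGT copies. The difference between anticodons was not tested.

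**Figure D2:**
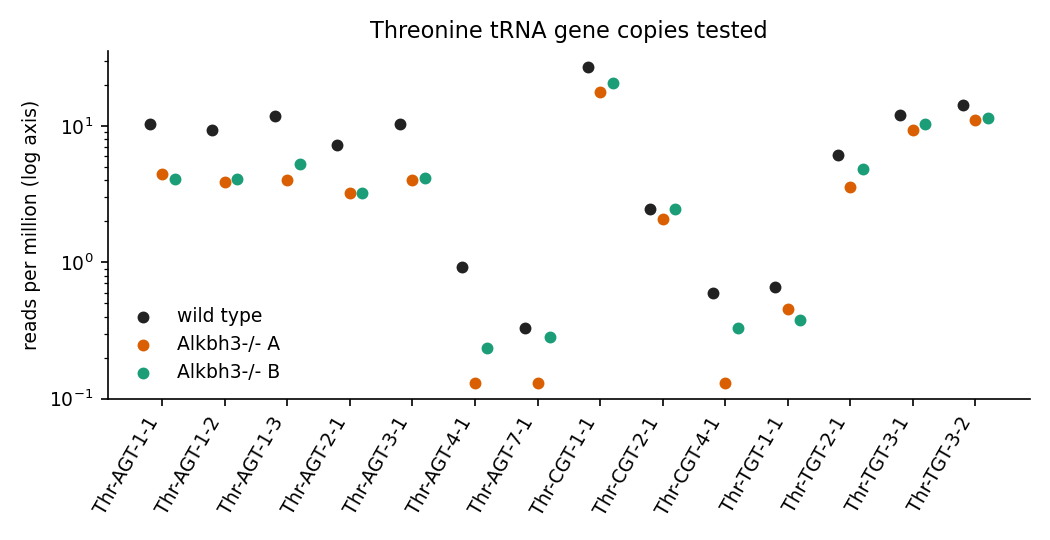
Reads per 1000000 class reads (RPM) of the 14 threonine gene copies tested, on a log axis, with 1 point for each library. In the 5 abundant Thr-AGT copies the Alkbh3-/- points lie well below the wild type point, while for Thr-CGT-1-1 and the 3 abundant TGT copies they lie nearer to it.

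The abundant copies lie at separate places in the genome. Thr-AGT-1-2 (chr11:69037853-69037926, plus strand), Thr-AGT-1-3 (chr11:69062744-69062817, minus strand) and Thr-AGT-3-1 (chr11:69110465-69110538, plus strand) lie within 72686 bp of each other. Thr-AGT-3-1 is 505 bp from Per1, a gene of the circadian clock. Thr-AGT-1-1 on chromosome 7 is outside that cluster, as is Thr-AGT-2-1 (chr13:23450622-23450695, plus strand). On chromosome 13 there are 7 threonine genes of all 3 anticodons within 2201502 bp, a stretch that also holds 23 histone genes of the Hist1 group. The 5 abundant Thr-AGT genes overlap no gene of GENCODE M21. Thr-TGT-3-1 (chr11:48853619-48853691, plus strand), Thr-TGT-3-2 (chr14:51065168-51065240, minus strand) and Thr-TGT-2-1 (chr14:51088650-51088722, plus strand) also overlap none. Thr-CGT-1-1 (chr16:13437323-13437394, plus strand) lies in an intron of Gm15738, which is on the other strand. Thr-CGT-2-1 overlaps an exon of Gm11205 on its own strand in its first 17 bases, so reads of that RNA could be counted with it.

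The third question was which fragments made up these reads. The fragment tables give, for each gene, the reads at each length in 2 end classes that carry no names, and no sequence or position. They hold more reads than the gene counts for Thr-AGT (1049 against 767 in wild type) and Thr-TGT (745 against 497) and far fewer for Thr-CGT (89 against 458). For Thr-CGT-1-1 the fragment tables held 25, 18 and 42 reads in wild type, A and B, where the gene counts were 412, 272 and 437. Fragment RPM and isoacceptor RPM are therefore not set against each other here. Summed from the fragment tables, Thr-AGT had a log2 fold change of -1.26 (edgeR adjusted p = 0.013), close to the value from the gene counts.

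Thr-AGT reads were nearly all of the second end class. Its share was 98.8% in wild type, 96.9% in A and 96.4% in B (exact 95% intervals 97.9 to 99.3%, 94.8 to 98.3% and 94.6 to 97.7%). That was the highest wild type share of the 35 isoacceptors with at least 300 fragment reads per library, Thr-TGT being eighth at 49.5%. The median length in the second class was 39 nt in each library, and the main lengths were 36, 39 and 40 nt. For comparison, the part of Thr-AGT-1-1 after its anticodon measures 40 bases with CCA.

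The 36-nt Thr-AGT fragment of the second class had the largest log2 fold change of the threonine fragments tested. It had 243 reads in wild type, 39 in A and 91 in B, or 16.1, 2.53 and 4.30 RPM. Both Alkbh3-/- values were far below wild type, and A was below B. It fell, with a log2 fold change of -2.19 and an SE of 0.59 (edgeR adjusted p = 0.012 over 572 fragments), and in 4 other settings with a test, DESeq2 among them, the adjusted p ran from 5.9e-05 to 0.046. Of 92 threonine fragments seen 16 were tested. Of the 16 threonine fragments that reached the minimum of 10 reads per library this was the only one called, while 1.05% of all fragments tested were called lower. Its share of the Thr-AGT fragment reads was 23.2% in wild type, 9.29% in A and 14.3% in B. In each of the 5 abundant copies the 36-nt reads were fewer in both Alkbh3-/- libraries. In Thr-AGT-1-1 they went from 63 to 8 and 17, and in Thr-AGT-1-3 from 67 to 7 and 23. In Thr-AGT-2-1 they went from 16 to 5 and 10. These copies supplied nearly all 36-nt Thr-AGT reads and may share them, so their falls restate that of the fragment and are no separate support.

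The other Thr-AGT fragments tested did not pass with the class sums as library sizes. All of them but the one of 34 nt were also less frequent in Alkbh3-/-, by a smaller factor. The 39-nt fragment had 19.1 RPM in wild type, 9.67 in A and 9.54 in B, or -0.99 in log2 fold change with an SE of 0.56 (edgeR adjusted p = 0.553). The 40-nt fragment had 19.2, 8.50 and 7.46 RPM, or -1.27 in log2 fold change with an SE of 0.56 (adjusted p = 0.363), and passed with TMM scaling (edgeR adjusted p = 0.034). For both, the Alkbh3-/- libraries stood close together and well below wild type. The 41-nt fragment (4.10, 1.49 and 1.65 RPM) and the 35-nt fragment (2.98, 1.56 and 1.89 RPM) did not pass either, nor did the 38-nt fragment (3.11, 0.649 and 1.28 RPM). At 34 nt the values were 1.46, 1.30 and 1.51 RPM, so the shortest of the tested Thr-AGT fragments was level between the genotypes. In 6 of the 7 Thr-AGT fragments tested both Alkbh3-/- libraries were below wild type, against 42.0% of all fragments tested. These fragments are lengths of the same isoacceptor and end class, whose total was lower in both libraries. They are not independent of each other, and the count largely restates that total. For each 36-nt read there were 2.38 reads of 39 and 40 nt in wild type, 7.18 in A and 3.96 in B.

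**Figure D3:**
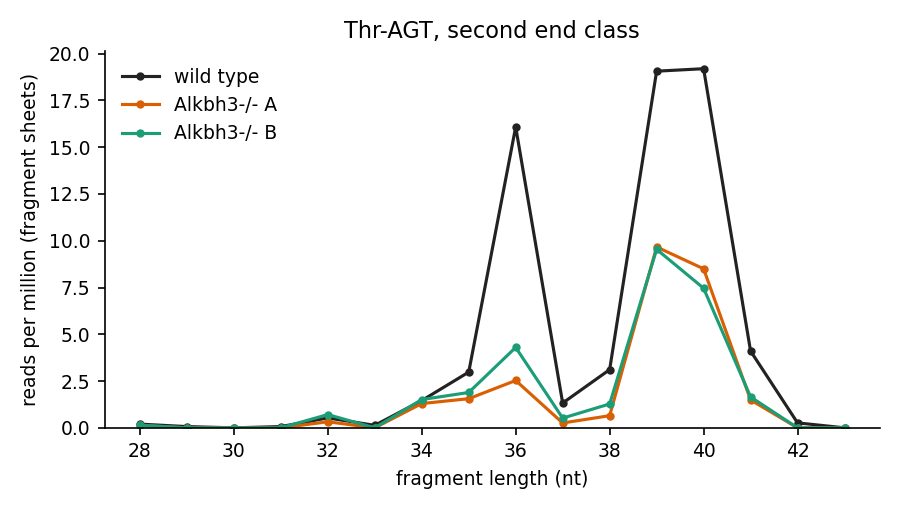
Reads per 1000000 class reads (RPM) of Thr-AGT fragments of the second end class by length in nt, with 1 line for each library. The wild type line has peaks at 36, 39 and 40 nt. In both Alkbh3-/- libraries the peak at 36 nt is reduced to 2.53 and 4.30 RPM and those at 39 and 40 nt to between 7.46 and 9.67 RPM.

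Thr-TGT reads were split between the classes. The first class held 376, 310 and 447 reads, with a median length of 30 nt in each library. Its main fragment, of 30 nt, had 12.8 RPM in wild type, 9.67 in A and 9.45 in B, or -0.43 in log2 fold change with an SE of 0.58 (edgeR adjusted p = 0.870). The 32-nt fragment of this class had 5.10, 4.22 and 5.10 RPM. Neither passed, and at 29 to 32 nt the first class held 45.4% of the Thr-TGT reads in wild type, 50.0% in A and 41.9% in B, on either side of wild type.

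In the second class of Thr-TGT the lengths differed between the libraries. Fragments of 38 nt had 7.02 RPM in wild type, 2.01 in A and 1.37 in B, or -2.09 in log2 fold change with an SE of 0.68 (edgeR adjusted p = 0.092). Fragments of 39 nt had 9.27, 4.54 and 3.59 RPM, or -1.21 in log2 fold change with an SE of 0.61 (adjusted p = 0.478). Both were lower in each Alkbh3-/- library, and neither passed, although the 38-nt fragment passed with TMM scaling (edgeR adjusted p = 0.0021). Among the shorter fragments no common direction was seen. Those of 31 nt had 1.13, 0.649 and 1.61 RPM, on either side of wild type, and those of 32 nt had 3.51, 4.54 and 7.32 RPM, or 0.79 in log2 fold change with an SE of 0.69 (edgeR adjusted p = 0.757). Those of 34 nt had 6 reads in wild type, 34 in A and 121 in B, or 0.397, 2.21 and 5.72 RPM. With 6 wild type reads the 34-nt fragment was under the filter of 10 reads in each library, and it is named because of its values. With a filter of 10 reads over the libraries its log2 fold change was 3.34 with an SE of 1.04 (edgeR adjusted p = 0.092), and it did not pass. Those of 35 nt, also under the filter of 10 reads in each library, had 10, 3 and 23 reads, and those of 29 nt had 4, 1 and 2.

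Second-class reads of 38 and 39 nt made up 33.02% of Thr-TGT reads in wild type, 17.8% in A and 11.2% in B, and those of 32 and 34 nt made up 7.92%, 18.4% and 29.3%. For each read of 32 or 34 nt there were 4.17 of 38 or 39 nt in wild type, 0.971 in A and 0.380 in B. These pairs of lengths were chosen after their values were seen, so the ratio is a description. The median length of the second class was 38 nt in wild type, 37 nt in library A and 34 nt in library B. Each of the 3 abundant genes gave the same direction in A and in B: 38-nt reads numbered 42, 12 and 16 in Thr-TGT-3-2, 35, 10 and 5 in Thr-TGT-3-1 and 29, 9 and 8 in Thr-TGT-2-1. Reads of 34 nt numbered 2, 11 and 45, then 1, 13 and 41, and 1, 10 and 35 in the same genes. These genes supplied most Thr-TGT reads of both lengths, and copies may share reads. Their common direction therefore restates the totals and is no separate support. The second class as a whole held 49.5%, 45.2% and 52.5% of Thr-TGT reads, so its size did not move one way, while its median length was lower in both Alkbh3-/- libraries. Libraries A and B differed from each other in these lengths by 20.4% of the Thr-TGT profile (the share of reads that would have to change length or class), as much as wild type differed from A (19.9%) and less than it differed from B (31.4%).

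**Figure D4:**
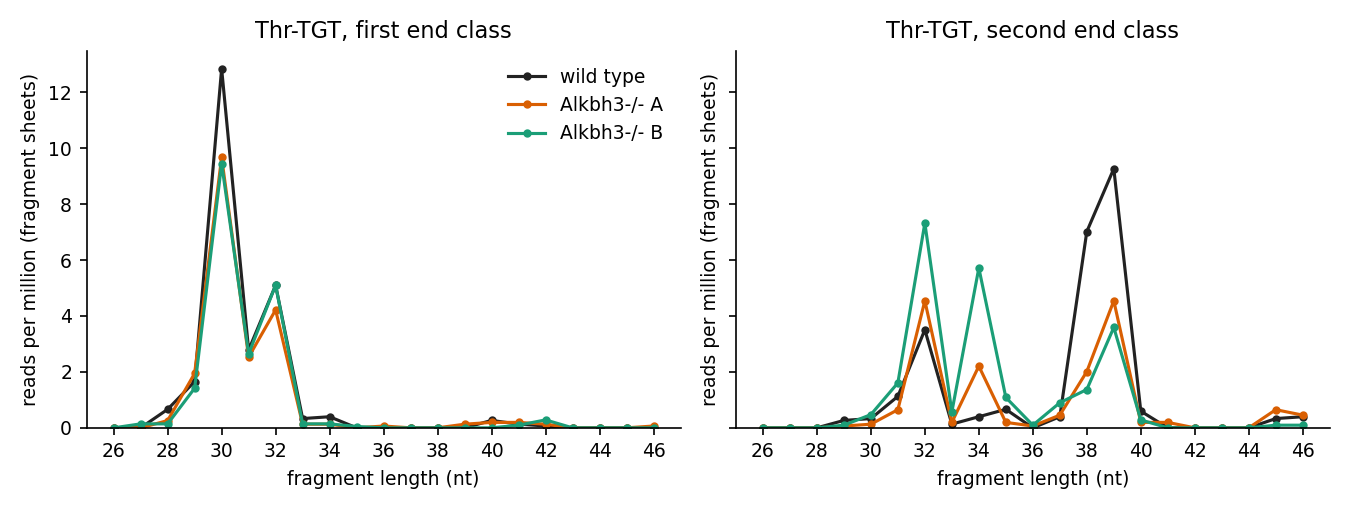
Reads per 1000000 class reads (RPM) of Thr-TGT fragments by length in nt, first end class on the left and second on the right, with 1 line for each library. The first class peaks at 30 nt in each library. In the second class wild type peaks at 38 and 39 nt, while library B peaks at 32 and 34 nt and library A lies between them.

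Thr-CGT had few fragment reads. Its first class was led by a fragment of 53 nt, beyond the excised range, with 37 reads in wild type, 10 in A and 33 in B, or -1.06 in log2 fold change with an SE of 0.84 (edgeR adjusted p = 0.727). Reads over 50 nt made up 52.8% of Thr-CGT reads in wild type (exact 95% interval 41.9 to 63.5%), 37.5% in A (23.95 to 52.6%) and 37.3% in B (28.6 to 46.7%), so the intervals overlapped. Of the first-class Thr-CGT reads, 39 of 49 in wild type, 14 of 19 in A and 36 of 54 in B came from Thr-CGT-2-1, the copy that overlaps an exon of Gm11205 and held 8.08% of the wild type Thr-CGT gene counts. The first class of Thr-CGT therefore describes mainly that copy. In Thr-AGT the share over 50 nt was at most 0.476%. The main second-class fragment of Thr-CGT, of 37 nt, had 9, 8 and 17 reads, and those of 32 and 38 nt had 4, 3 and 11 reads and 2, 5 and 7 reads. In the first class the 54-nt fragment had 6, 3 and 6 reads. All Thr-CGT fragments other than the one of 53 nt were under the filter of 10 reads in each library and were not tested with it.

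Pooled over the anticodons, 76.0% of the wild type threonine reads were longer than 32 nt, against 62.1% ± 0.331 (SD, n = 2) in Alkbh3-/-. The difference of -13.9 percentage points was -5.80 for reads longer than 31 nt and -1.14 in the first end class alone, so its size rests on the length chosen and on the second class. The pooled share also moves with the part of Thr-AGT, whose reads are nearly all longer. Within Thr-AGT the share was 98.3% in wild type, 97.1% in A and 96.5% in B, and within Thr-TGT it was 42.6%, 34.5% and 35.7%. Pooled in the same way, the second class had a share of 76.7% in wild type, against 68.0% ± 1.54 (SD, n = 2). The anticodons did not move together in this share. Within Thr-CGT it was 44.9% in wild type, 60.4% in A and 54.2% in B, with few reads and overlapping intervals. Within Thr-TGT it lay on either side of wild type, and within Thr-AGT it was lower in both Alkbh3-/- libraries. Of the threonine reads in the fragment tables Thr-AGT supplied 55.7% in wild type, 40.6% in A and 37.6% in library B.

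The last question was whether the other isoacceptors known to carry 3-methylcytidine moved with the threonine tRNAs. Of 7 listed, Ser-AGA and Leu-CAG rose, 4 were tested and not called, and Arg-TCT, with 1 read in wild type and 0 in the others, was not tested. Of all isoacceptors tested, 6.52% were called higher. Ser-AGA was at 28.4 RPM in wild type, 38.2 in A and 47.6 in B, or 0.62 in log2 fold change with an SE of 0.21 (edgeR adjusted p = 0.022). Leu-CAG, whose mark lies in the variable arm, was at 29.1, 38.02 and 46.2 RPM, or 0.55 in log2 fold change with an SE of 0.21 (adjusted p = 0.044). Both were called in 3 of 8 other settings, with adjusted p-values from 0.019 to 0.26 for Ser-AGA and from 0.026 to 0.31 for Leu-CAG. Ser-GCT, Ser-CGA and Ser-TGA had log2 fold changes of 0.31 (SE 0.20), 0.49 (SE 1.04) and 0.24 (SE 0.29). Arg-CCT, whose 3-methylcytidine is also at position 32, had -0.46 (SE 0.21, edgeR adjusted p = 0.110), the same log2 fold change as Thr-CGT to 2 decimals. The median of the 6 tested was 0.40, that of the 3 threonine isoacceptors -0.46 and that of all isoacceptors tested -0.26. The tested serine carriers stood above the median of all isoacceptors and the threonine ones below it, and no test of that difference was made.

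**Figure D5:**
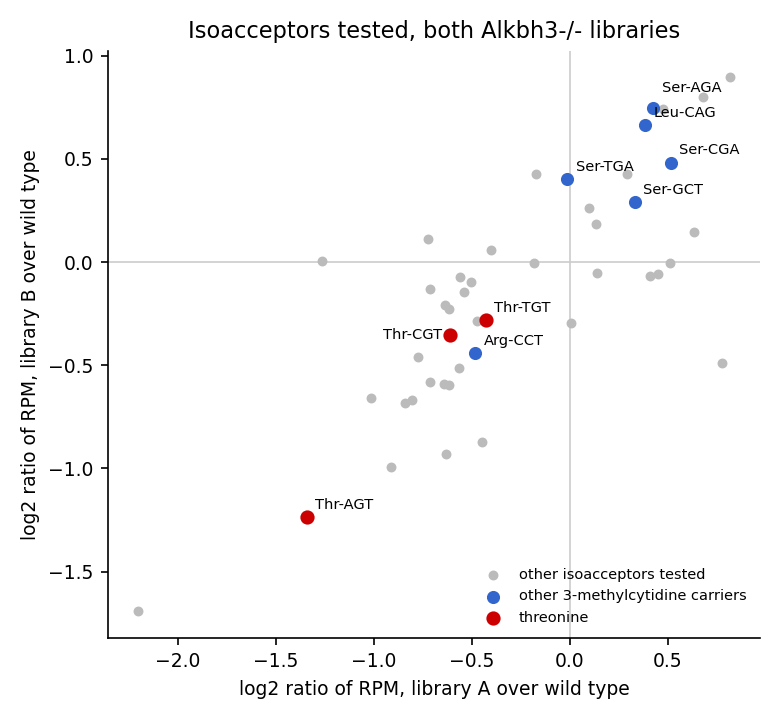
Log2 ratio of RPM to wild type in library A (horizontal axis) and library B (vertical axis) for the 46 isoacceptors tested, with 1 point for each. Thr-AGT lies at -1.34 and -1.24, Thr-CGT and Thr-TGT lie beside Arg-CCT, and the serine and leucine carriers lie above 0 on both axes except Ser-TGA, at -0.01 in library A.

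Outside the threonine tRNAs, the isoacceptors nearest to Thr-AGT in the pair of ratios to wild type were Arg-TCG, at -0.91 and -0.99, and Val-TAC, at -1.01 and -0.66, among 41 with a mean of 50 or more reads. Nearest to Thr-CGT were SeC-TCA and Val-CAC, and nearest to Thr-TGT were Lys-TTT and Arg-CCT. By length and end class in wild type, the nearest to Thr-AGT of 24 isoacceptors with 1000 or more fragment reads was Asp-GTC, which differed from it by 63.9% of the reads. Thr-TGT was nearest to His-GTG, at 54.6%, and differed from Thr-AGT by 70.4%, so the threonine anticodons were less like each other in fragment lengths than Thr-TGT was like His-GTG.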

How the data were processed

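Read counts of 5 RNA classes and of 446 tRNA genes, and sheets of reads per gene, fragment length and end class, are given as deposited by the authors, raw and not normalized. Total RNA (100 μg) was run on a 15% gel, per the labels' protocols. The submitters' processing notes name cutadapt and the build mm10. How reads were aligned, counted and assigned among similar genes is not stated in the labels. The 6 sheet columns of end class sums were not used.

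Counts were summed per isoacceptor, or per isoacceptor, length and end class, and tested with edgeR 4.0.16 (estimateDisp, glmQLFit, glmQLFTest) in R 4.3.3 with the class sum as library size, no composition factor and Benjamini-Hochberg adjustment over all features. Features needed 10 reads over the libraries (fragments, 10 in each), and a call is an adjusted p under 0.05. The model had 1 residual degree of freedom and infinite prior degrees of freedom for isoacceptors and fragments (3.51 for genes), so where infinite the spread was pooled over features. SE is the log2 fold change divided by the root of F. DESeq2 1.42.0 and other scalings, filters and tables were tried. Over isoacceptors, A and B differed beyond counting noise (chi-square 266 per degree of freedom), which does not show that they come from separate animals.

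All threonine genes are reported, with the called fragments, the 5 most abundant of each isoacceptor where reads allowed, and others chosen after their values were seen. The members, lists and rules were chosen with earlier results of these data known. Sequences were read from RefSeq GRCm38.p6 and GENCODE M21 by the deposited coordinates.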

Additional observations from a re-analysis of the deposited data

How the results depend on the processing

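Thr-AGT was lower in all 10 other settings, between -1.34 and -0.97 on the log2 scale, and passed in 7 of the 8 that give a p. The exception was DESeq2 (-0.97, adjusted p = 0.057). Without library A its ratio to wild type was -1.24 and without library B -1.34. Thr-CGT (-0.61 to -0.16) and Thr-TGT (-0.43 to -0.03) were below 0 in the same settings and never passed. The 5 called gene copies became 0 with DESeq2, where 4 of the 14 threonine copies tested had an unadjusted p under 0.05. With edgeR and the tRNA counts as library sizes they also became 0, and 6 of the 14 had an unadjusted p under 0.05. The 1 called fragment became 3 with TMM scaling (36 and 40 nt of Thr-AGT, 38 nt of Thr-TGT). It became 0 with 50 reads in each library in edgeR (2 unadjusted). That filter leaves 6 threonine fragments and removes the called one. The Alkbh3-/- minus wild type difference in the ratio of Thr-AGT to Thr-TGT was -0.74 in the gene counts and -0.70 in the fragment tables. That in the threonine share over 32 nt was -13.9 percentage points, -14.6 for over 33 nt, -5.80 for over 31 nt and -1.14 in the first end class alone. Signs changed for values near 0. Thr-CGT-2-1 went from -0.09 to 0.027 (TMM), 0.084 (DESeq2) and 0.17 (tRNA sums), and from -0.24 to 0.0042 with 1 library left out. The 32-nt first-class Thr-TGT fragment went from -0.11 to 0.16 with fragment sums as library sizes, and from -0.27 to 0.0013 with 1 library left out. Ser-TGA ran from -0.012 to 0.40 with 1 library left out. Over all isoacceptors 3 were called higher and 8 lower, 4 and 5 with the tRNA sums, and 2 and 1 with DESeq2. Over all genes the calls were 9 and 27, but 12 and 6 with DESeq2, 9 and 14 with TMM and 10 and 11 with the tRNA sums. Over all fragments they were 7 and 6, but 27 and 21 with TMM, 20 and 6 with DESeq2 and 14 and 4 with the fragment sums. The cause was not tested. No paired analysis was possible with 1 wild type library against 2 Alkbh3-/- libraries. In addition, the wild type label carries no replicate number and the deposited columns carry none of the labels' numbers. The fragment tables hold 118 Thr-CGT reads or fewer per library, against 306 or more gene counts, and the reason for the gap is not stated.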
